A study of Homo sapiens with 12 samples.

Results

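The 56 genes described here are a chosen list of G2/M and mitotic spindle genes, and all 56 were found by symbol among the 25369 gene symbols of the count table. They were divided by function into 9 roles, which hold 10 genes of mitotic entry, 4 of the anaphase-promoting complex and anaphase onset, 5 of the spindle checkpoint, 4 of the chromosomal passenger complex, 11 of the kinetochore and centromere, 11 kinesins, 6 of spindle assembly, 3 of cytokinesis and 2 of chromosome structure. All 56 passed the filter on low counts, among 12514 genes tested.

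RNA came from tumours of MDA-MB-231, an established human line of triple-negative breast cancer cells, grown in the mammary fat pad of mice. Animals of the p38i group were given SB202190, which blocks p38 MAP kinases, at a dose of 1 mg/kg/day. Those of the EZH2i group were given EPZ-6438, which blocks the histone methyltransferase EZH2, at a dose of 10 mg/kg/day. The labels write the code of that compound in 2 ways. The combination group received both compounds, at doses the labels do not repeat for it, and the control group received the vehicle of DMSO, PEG 300 and Tween 80. Every animal was injected intraperitoneally on 5 days a week once its tumour reached 100 mm3, and 3 tumours of the 10 mice per group were sequenced. The mouse strain and the length of treatment are not stated. The model is 1 cell line, and the host cells in each tumour are of mouse origin. Libraries carry the tumour number of their label (control 1-1), except p38i col5 and p38i col6, which are known only by their column: col5 is named by both remaining p38i samples, and col6 was assigned by elimination.

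Cells enter mitosis when CDK1, bound to A- and B-type cyclins, is switched on by the CDC25 phosphatases and by the kinases PLK1 and AURKA. Kinetochores then tie chromosomes to spindle microtubules, the spindle checkpoint holds back the anaphase-promoting complex until every kinetochore is attached, and kinesins, bundling proteins and the passenger complex carry out segregation and cytokinesis. Most of these genes are transcribed in a wave from late S phase to mitosis, driven by the MuvB complex with B-MYB and FOXM1 at the cell cycle homology region of promoters, and by NF-Y at CCAAT boxes. Bulk RNA cannot tell more cells in G2 and mitosis apart from more mitotic RNA per cell.

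Promoter sequence was available from RefSeq (GRCh38.p14, 250 bases before to 50 after the gene start) for 48 of the 56 genes, all except AURKA, FOXM1, UBE2C, BUB3, TTK, BIRC5, CENPM and TPX2. The letters TTTGAA, the core of the cell cycle homology region, stood on either strand of 31 of the 48 promoters (64.6%), against 10.2% of the 9316 available promoters of genes tested. CCAAT, on either strand, stood in 35 (72.9%), against 37% of the promoters of genes tested, and both motifs stood together in 24 (50%), against 4.42%. Neither motif contains the other on either strand, but their sites can share a base at the ends, and shared bases were not looked for. Within 50 bases of the gene start, TTTGAA was found in 27 of the 48 (56.2%) and in 2.86% of promoters of genes tested. The median GC content was 62.2% in the mitotic promoters and 65% in the promoters of genes tested. A match is a description of the letters, not evidence of binding. The promoters of 4 of the 5 genes that rose under p38 inhibition, and of CDC25B, which had the opposite sign to all other members, are printed 5′ to 3′ on the gene's strand because they show the range of motif content, with both motifs, read on either strand, in capitals.
BUB1 (chr2:110678014-110678313, minus strand): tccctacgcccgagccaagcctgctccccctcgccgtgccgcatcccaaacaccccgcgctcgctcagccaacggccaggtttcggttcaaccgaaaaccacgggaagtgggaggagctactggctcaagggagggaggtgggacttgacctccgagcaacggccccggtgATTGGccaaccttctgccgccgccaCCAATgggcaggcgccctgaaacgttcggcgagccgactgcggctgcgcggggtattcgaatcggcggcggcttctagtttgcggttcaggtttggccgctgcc
NDC80 (chr18:2571307-2571606, plus strand): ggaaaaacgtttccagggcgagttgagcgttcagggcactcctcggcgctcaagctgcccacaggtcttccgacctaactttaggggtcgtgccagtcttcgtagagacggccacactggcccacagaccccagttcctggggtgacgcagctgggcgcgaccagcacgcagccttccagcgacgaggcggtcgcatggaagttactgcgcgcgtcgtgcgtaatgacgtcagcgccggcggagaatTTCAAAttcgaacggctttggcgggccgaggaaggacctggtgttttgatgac
SKA1 (chr18:50374796-50375095, plus strand): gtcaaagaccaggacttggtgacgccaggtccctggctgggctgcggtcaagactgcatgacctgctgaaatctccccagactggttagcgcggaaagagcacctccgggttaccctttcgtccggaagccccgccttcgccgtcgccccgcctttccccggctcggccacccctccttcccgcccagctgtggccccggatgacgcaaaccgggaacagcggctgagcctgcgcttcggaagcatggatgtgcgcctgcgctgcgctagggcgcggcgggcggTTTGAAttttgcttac
KIFC1 (chr6:33391573-33391872, plus strand): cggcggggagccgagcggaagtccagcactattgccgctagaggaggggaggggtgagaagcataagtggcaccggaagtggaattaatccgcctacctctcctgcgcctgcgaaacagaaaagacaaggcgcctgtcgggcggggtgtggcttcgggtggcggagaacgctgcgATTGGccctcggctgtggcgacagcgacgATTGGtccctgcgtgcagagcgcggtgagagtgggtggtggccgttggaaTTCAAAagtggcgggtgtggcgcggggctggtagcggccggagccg
CDC25B (chr20:3786701-3787000, plus strand): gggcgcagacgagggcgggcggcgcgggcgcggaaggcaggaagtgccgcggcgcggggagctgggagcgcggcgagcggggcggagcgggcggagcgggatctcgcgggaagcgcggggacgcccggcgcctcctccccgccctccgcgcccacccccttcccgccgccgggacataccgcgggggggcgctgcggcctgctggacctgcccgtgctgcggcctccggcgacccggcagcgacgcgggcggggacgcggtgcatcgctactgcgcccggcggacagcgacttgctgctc
KIFC1 holds 1 TTTGAA and 2 CCAAT boxes, NDC80 and SKA1 hold 1 TTTGAA each, BUB1 holds 2 CCAAT boxes and no TTTGAA, and CDC25B holds neither, as does KIF2C, the fifth gene that rose. In all, 6 of the 48 promoters held neither motif.

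**Figure D1:**
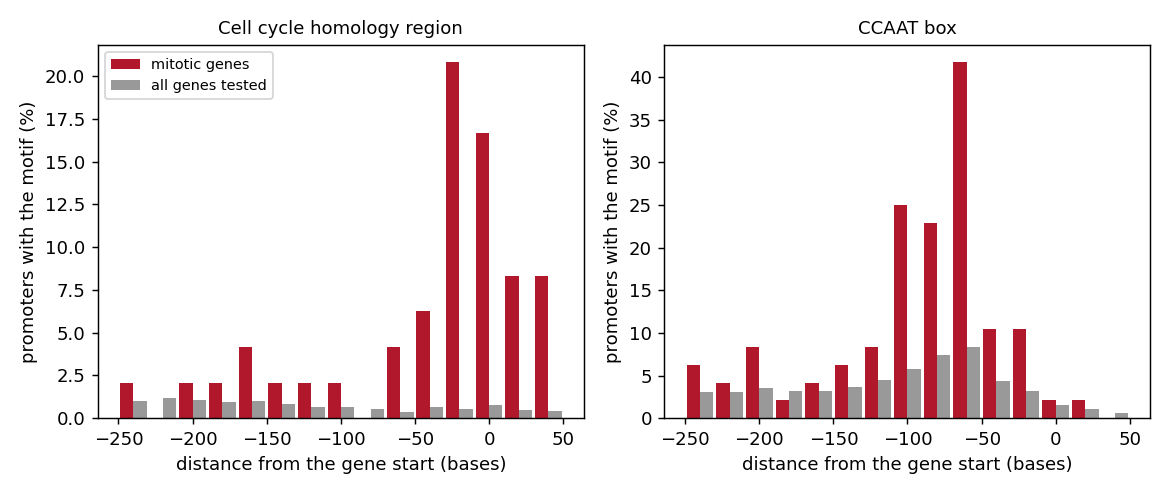
Share of promoters (%) with the cell cycle homology region (left panel) and with the CCAAT box (right panel) in bins of 20 bases, against distance from the gene start, for the 48 mitotic gene promoters (red) and the 9316 promoters of genes tested (grey). In the mitotic promoters the cell cycle homology region reaches 20.8% in the bin that starts 30 bases before the gene start, where the promoters of genes tested have 0.569%.

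The libraries held 2208771 to 4467942 counts, and levels are given as CPM, the counts of a gene divided by the library size after TMM scaling (trimmed mean of M values) and set to a common total. All 11 markers chosen for the line and its receptor status were detected in all 12 libraries, with VIM at 3774 to 6376 CPM. The receptor genes are among the 11, so detection of all of them is not by itself a mark of the line. The oestrogen receptor gene ESR1 was at 1.24 to 13.1 CPM, PGR at 2.69 to 7.16 CPM and ERBB2 at 16.6 to 30.5 CPM. Among the immune and blood markers, NKG7, HBA1 and HBA2 were at 0 in all 12 libraries. The summed level of 12 skeletal muscle markers was 1611 CPM in p38i col6, against 47.2 to 155 CPM in the other 11 libraries, and all 12 were highest in p38i col6. The nuclear RNA MALAT1 took 2.75%, 1.81% and 2.22% of counts in the p38i libraries, 2.71%, 1.47% and 2.82% in the EZH2i libraries and 2.37%, 1.66% and 2.05% in the combination libraries, against 3.88%, 3.72% and 3.12% in the controls. The part of muscle transcripts, MALAT1 or depth in the results on mitotic genes was not tested.

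Summed mitotic transcripts were on average higher in each of the 3 treated groups than in the controls, with a wide spread between tumours. The 56 genes summed to 7243 ± 1923 CPM in the p38i group, 6381 ± 1285 CPM in the EZH2i group and 6415 ± 705 CPM in the combination group, against 4620 ± 1148 CPM in the controls (SD, n = 3 each). By library the sums were 5537, 6864 and 9327 CPM under p38i, 5309, 7806 and 6028 CPM under EZH2i and 6946, 5615 and 6684 CPM under the combination, against 3472, 4619 and 5768 CPM in the controls. Control 2-1, the highest control, lay above the lowest library of each treated group, so every treated group overlapped the controls in this sum. The highest sum was that of p38i col6 and the lowest that of control 1-1.

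Most of the 56 genes moved together from library to library. Each gene's log2 CPM was centred on its mean over the 12 libraries, and the median of the 56 centred values was then taken in each library. That median was -0.08, 0.30 and 0.67 in p38i 3-3, col5 and col6, it was -0.22, 0.39 and 0.12 in EZH2i 5-3, 5-4 and 6-1, and it was 0.22, -0.01 and 0.24 in combination 8-1, 9-1 and 9-2. In control 1-1, 1-3 and 2-1 it was -0.90, -0.50 and -0.07. The median SD of a gene's log2 CPM over the 12 libraries was 0.48, and it was 0.23 after the library median was subtracted; the SD became smaller for 53 of the 56 genes and not for CDC25B, SKA2 and BUB3. A first principal component of the centred values held 58.4% of their variance. The values were not scaled by gene, so genes of wide spread, such as SPC24 (SD 1.91), count for more in this share. Like values for all genes tested were not taken, so this joint movement is not shown to be particular to mitotic genes.

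The 3 control tumours were unlike each other. Control 1-1 was the lowest of all 12 libraries for 43 of the 56 genes and lay below all 9 treated libraries for 46, control 1-3 lay below all 9 treated libraries for 32, and control 2-1 did so for 7. All 3 controls lay below all 9 treated libraries for 5 genes, CCNB2, CDC20, SKA1, KIF15 and TPX2. Control 2-1 was the highest control for 50 of the 56 genes, and its level was within the range of the p38i libraries for 31 genes, of the EZH2i libraries for 40 and of the combination libraries for 22. At the other end, p38i col6 was the highest library for 35 genes and EZH2i 5-4 for 16. The counts in this paragraph were made over the 56 genes only. Like shares of all genes tested were not taken, so none of these patterns is shown to be particular to mitotic genes.

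Depth moved with these levels in part of the groups. Total counts were 2956275, 3520976 and 4104159 in p38i 3-3, col5 and col6 and 2484579, 3429634 and 4360021 in control 1-1, 1-3 and 2-1, the same order as the mitotic medians in both groups. The deepest EZH2i library, 5-4, with 4017843 counts, also had the highest mitotic median of its group. In that group 6-1, with 2208771 counts, lay above 5-3, with 2565786. The deepest combination library, 9-1, with 4467942 counts, had the lowest mitotic median of its group. Genes of DNA replication and S phase showed a like pattern, with centred medians of -0.14, 0.19 and 0.56 in the p38i libraries, -0.07, 0.24 and 0.07 in the EZH2i libraries and 0.27, -0.01 and 0.17 in the combination libraries, against -0.58, -0.37 and -0.11 in the controls.

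**Figure D2:**
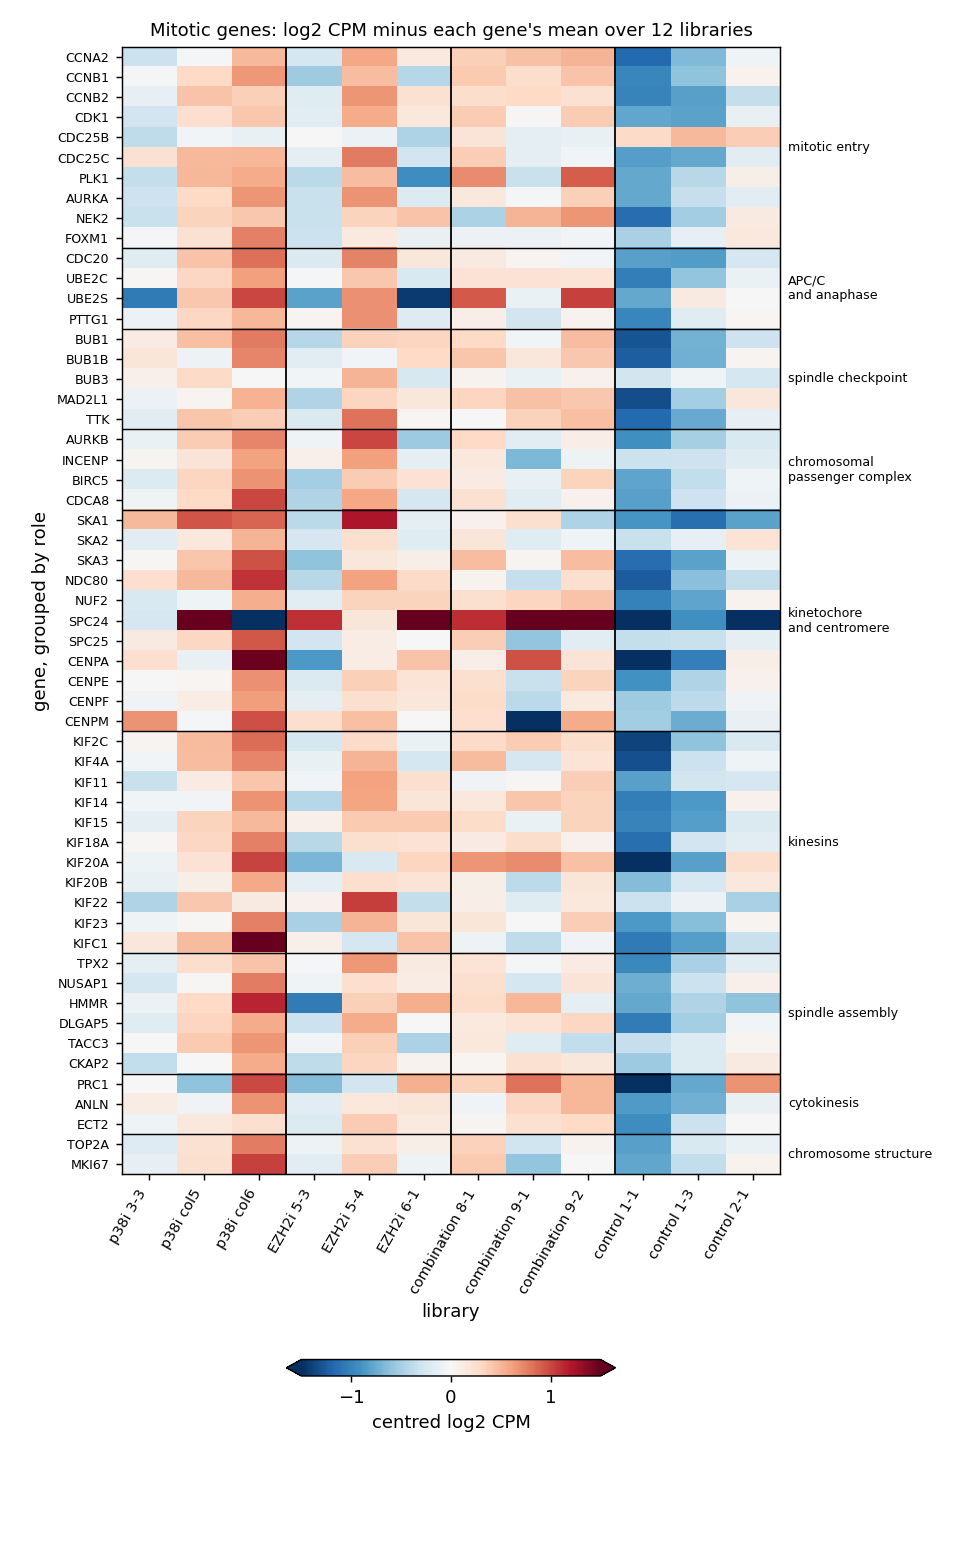
Colour gives log2 CPM minus the gene's mean over 12 libraries, for 56 genes (rows, grouped by role) in the p38i, EZH2i, combination and control libraries (columns); the colour scale is clipped at its ends. Control 1-1 is blue in nearly every row, p38i col6 is red in most, and CDC25B runs against the other genes, with its highest values in the controls.

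Under p38 inhibition 5 of the 56 genes rose and none fell. The 5 were BUB1, SKA1, NDC80, KIF2C and KIFC1, at an adjusted p under 0.05 in edgeR's quasi-likelihood test with Benjamini-Hochberg adjustment over all genes tested. In this comparison 0.655% of all genes tested were called higher and 1.11% lower. At an unadjusted p under 0.05, 41 of the 56 genes (73.2%) were higher and 1 was lower, against 9.08% of all genes tested higher and 9.3% lower. All 3 p38i libraries lay above all 3 controls for 23 genes (41.1%; 12.3% of all genes tested) and below them for 1 gene (12.5% of all genes tested). The fitted log2 fold change was positive for 55 of the 56, with a median of 0.72 (1.65-fold), while the median over all genes tested was -0.00099.

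BUB1, a checkpoint kinase that recruits other checkpoint proteins to kinetochores, had 31.7, 39.7 and 49.9 CPM in the p38i libraries, against 11.7, 17.7 and 23.5 CPM in the controls. The groups did not overlap, and the log2 fold change was 1.18 (SE 0.276, adjusted p = 0.0461). NDC80, the subunit that gives the outer kinetochore its hold on microtubules, had 80.8, 94.9 and 144 CPM under p38i, against 28.3, 43.8 and 53.1 CPM in the controls, a log2 fold change of 1.34 (SE 0.295, adjusted p = 0.0418). Its lowest p38i library was above its highest control. SKA1, part of the complex that keeps kinetochores on shortening microtubules, had 12.3, 16.8 and 16.1 CPM under p38i, against 4.58, 3.90 and 4.98 CPM in the controls. The log2 fold change was 1.74 (SE 0.397, adjusted p = 0.0430), and control 2-1 was close to the other controls for this gene.

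KIF2C, a kinesin that removes tubulin from microtubule ends and corrects faulty attachments, had 74.6, 100.2 and 129.7 CPM under p38i, against 27.5, 47.4 and 61.6 CPM in the controls. The groups were separate, with a log2 fold change of 1.14 (SE 0.259, adjusted p = 0.0430). KIFC1, a minus-end-directed kinesin that clusters centrosomes in cells with extra ones, had 80.4, 98.8 and 252 CPM under p38i, against 34.1, 40.2 and 56.6 CPM in the controls, and the log2 fold change was 1.71 (SE 0.371, adjusted p = 0.0420). p38i col6 stood far above the other 11 libraries for KIFC1, and without it the log2 fold change was 1.03 (adjusted p = 0.116). No member was called when col6 was left out, nor when either of the other p38i libraries, any combination library, control 1-1 or control 1-3 was. In the same fits, 0% to 0.0234% of all genes tested were called higher without a p38i library. The shares were 0.226% to 0.373% without a combination library, 0.0235% without control 1-1 and 0% without control 1-3. At an unadjusted p under 0.05, 16 members were higher without col6, where 6.43% of all genes tested were, and 18 without control 1-1, where 6.31% were. Without EZH2i 6-1 the count of members called higher was 1 (0.565% of all genes tested in the same fit), without EZH2i 5-4 it was 10 (1.63%), and without control 2-1 it was 20 (1.94%). In the 20 alternative settings that left out at most 1 library the 5 genes kept a positive log2 fold change, and their calls held in 7 (KIFC1) to 11 (SKA1, NDC80) of them.

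**Figure D3:**
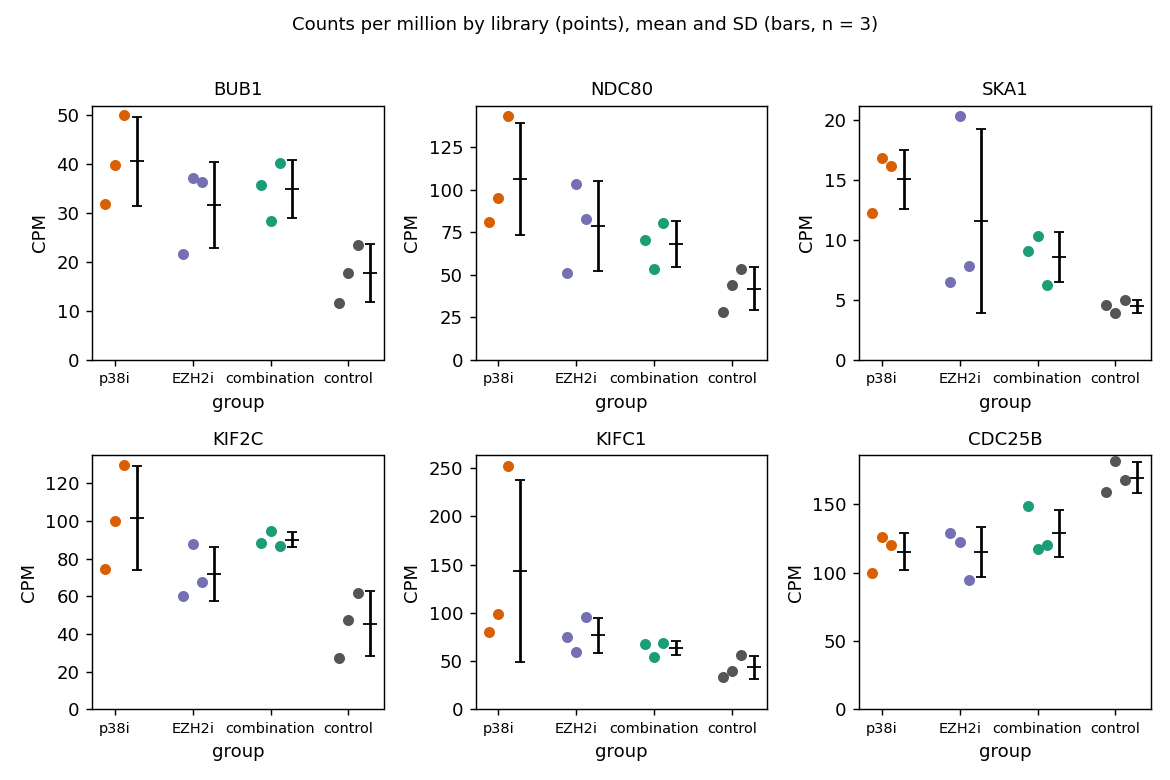
CPM in each library (points) for the 5 genes that rose under p38i and for CDC25B, by group; black bars give the mean and SD of the 3 libraries. The p38i points of BUB1, NDC80, SKA1, KIF2C and KIFC1 lie above all control points, KIFC1 in p38i col6 reaches 252 CPM, and CDC25B is highest in the controls, at 159 to 181 CPM.

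EZH2 inhibition and the combination gave fold changes of the same sign for the same genes, with no call. No member was called under EZH2i by edgeR's quasi-likelihood test, where 0.0879% of all genes tested were called higher and 0.128% lower; 22 members (39.3%) were higher at an unadjusted p under 0.05 (7.43% of all genes tested) and 1 was lower (7.29%). DESeq2 called 3 members higher there, and 0.831% of all genes tested. All 3 EZH2i libraries lay above all 3 controls for 11 members (19.6%; 8.32% of all genes tested) and below them for 1 (8.09%). The median log2 fold change was 0.55, with 55 of 56 positive, and the smallest adjusted p was 0.114, for CCNB2. No member was called under the combination, where 0% of all genes tested were called higher and 0.00799% lower; 26 members (46.4%) were higher at an unadjusted p under 0.05 (7.66% of all genes tested), 1 was lower (8.67%), and DESeq2 called 3 higher, and 0.575% of all genes tested. All 3 combination libraries lay above all 3 controls for 29 members (51.8%; 10.7% of all genes tested) and below them for 1 (11.2%), and the median log2 fold change was 0.62. The 3 comparisons share the same 3 controls, so a low control raises all of them at once.

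**Figure D4:**
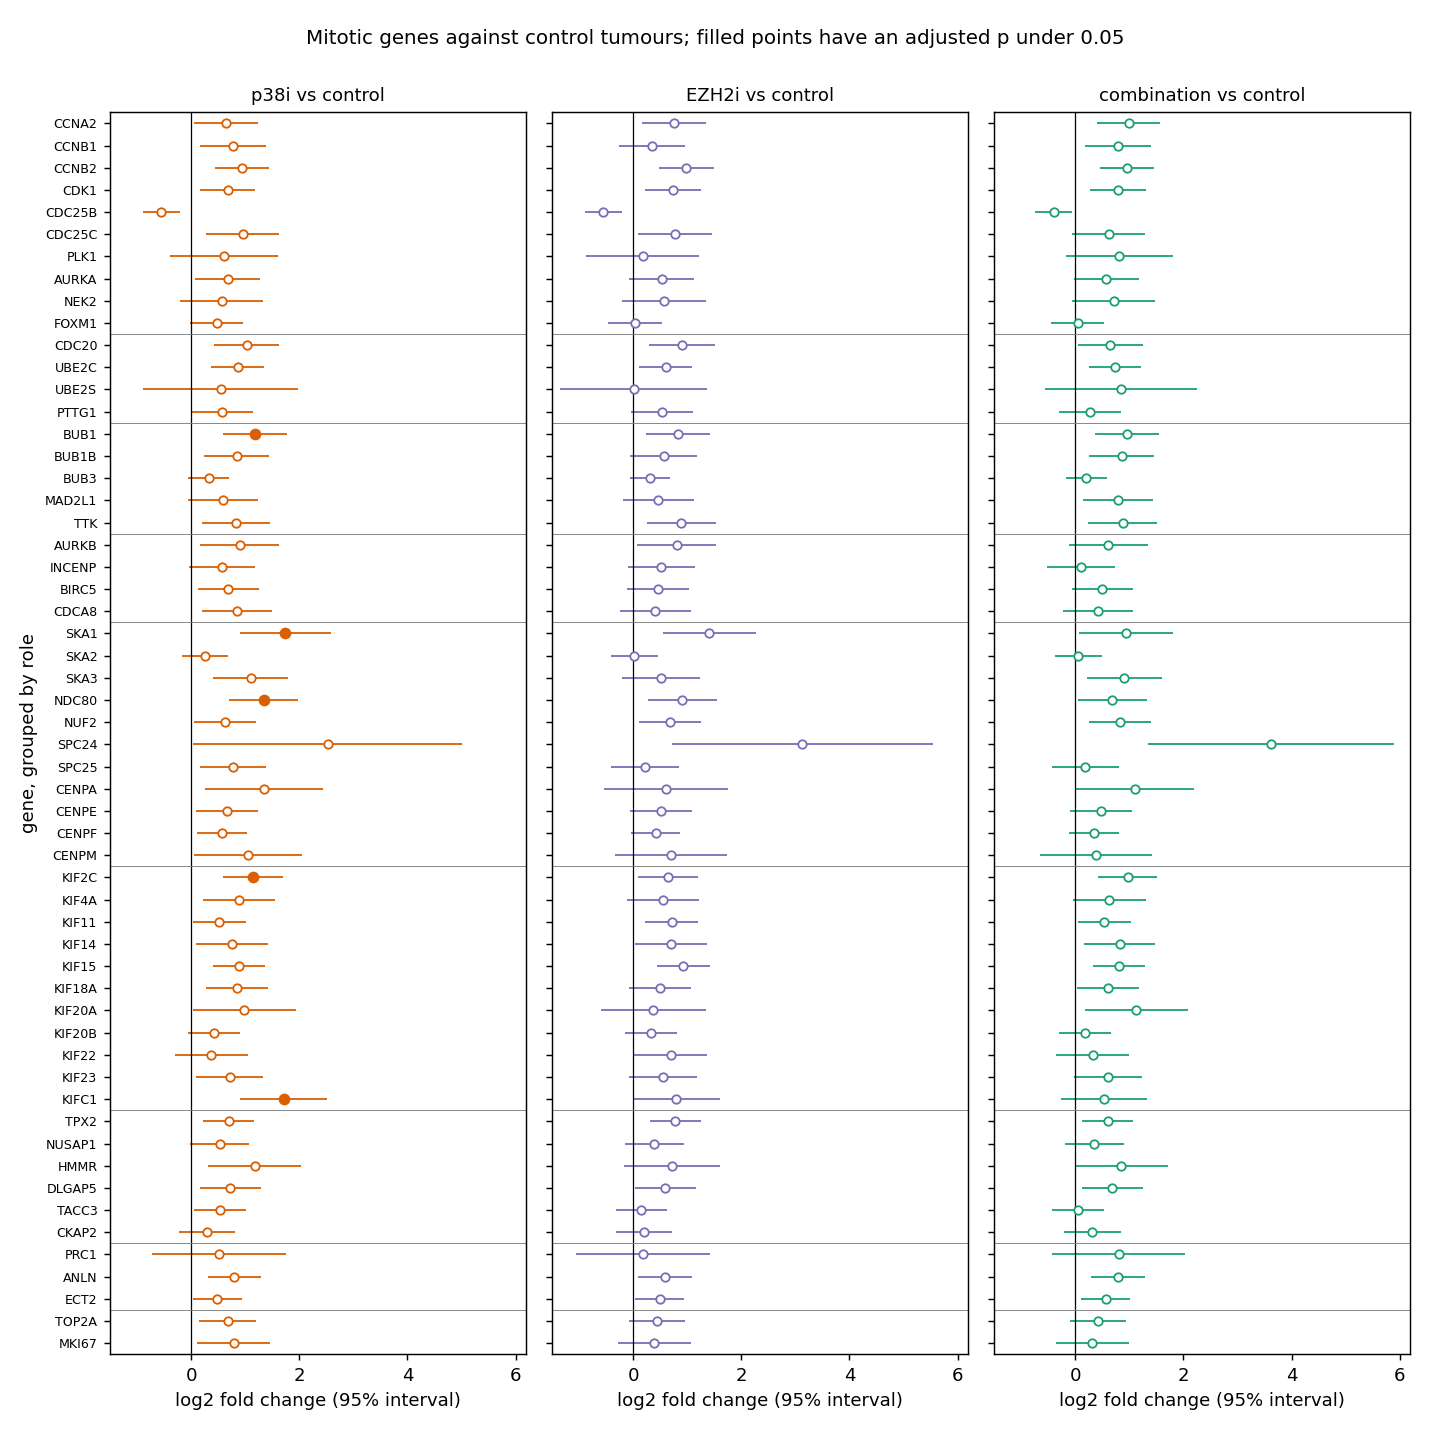
Log2 fold change with its 95% interval for each of the 56 genes under p38i, EZH2i and the combination, against the controls; filled points have an adjusted p under 0.05. The 5 filled points are in the p38i panel, CDC25B is the only gene left of 0 in each panel, and SPC24 has the widest interval.

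Among the 10 genes of mitotic entry the median log2 fold change was 0.66 under p38i, 0.55 under EZH2i and 0.75 under the combination. CCNB2, a B-type cyclin, had 35.4, 52.2 and 49.7 CPM under p38i, 34.2, 61.4 and 45.4 CPM under EZH2i and 46.6, 47.6 and 45.5 CPM under the combination, against 19.1, 21.9 and 30.1 CPM in the controls. Its 9 treated libraries were all above the 3 controls, with log2 fold changes of 0.94, 0.98 and 0.96 in the order just given, and adjusted p-values of 0.0598, 0.114 and 0.160 in edgeR. DESeq2 called CCNB2 higher in all 3, as it did 2.24%, 0.831% and 0.575% of all genes tested. CDK1, the kinase that drives entry, had 111, 162 and 181 CPM under p38i, 122, 200.3 and 151 CPM under EZH2i and 177, 138 and 178 CPM under the combination, against 79.1, 78.1 and 127 CPM in the controls. Control 2-1 lay above p38i 3-3 and EZH2i 5-3 for CDK1, and only the combination was separate from the controls. CCNB1 had a log2 fold change of 0.77 under p38i (SE 0.286), 0.35 under EZH2i (SE 0.288) and 0.80 under the combination (SE 0.286). PLK1, a kinase that acts in entry, spindle assembly and cytokinesis, was measured at only 2.18 to 8.47 CPM, and its groups overlapped. AURKA, a kinase of centrosome maturation, averaged 139 ± 44.7 CPM under p38i, 125 ± 51.0 CPM under EZH2i and 130 ± 16.6 CPM under the combination, against 87.0 ± 18.0 CPM in the controls (SD, n = 3 each). FOXM1, the transcription factor of the mitotic wave, had a log2 fold change of 0.48 (SE 0.230) under p38i. It differed little under EZH2i, at 0.04 (SE 0.235), and under the combination, at 0.04 (SE 0.233).

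CDC25B, the phosphatase that starts CDK1 activation at the centrosome, was the exception in sign. It had 99.9, 126 and 119.9 CPM under p38i, 129, 123 and 94.3 CPM under EZH2i and 149, 118 and 120.5 CPM under the combination, against 159, 181 and 168 CPM in the controls. Every treated library was below every control. The log2 fold change was -0.55 (SE 0.162) under p38i, -0.55 (SE 0.162) under EZH2i and -0.40 (SE 0.161) under the combination, with adjusted p-values of 0.0930, 0.152 and 0.260 in edgeR, so it was called in none of them; DESeq2 called it lower under p38i, as it did 2.81% of all genes tested. CDC25C, its paralogue, was positive in all 3 comparisons, at 0.96, 0.77 and 0.61 under p38i, EZH2i and the combination.

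The 4 genes of the anaphase-promoting complex and anaphase onset had median log2 fold changes of 0.71 under p38i, 0.57 under EZH2i and 0.69 under the combination. CDC20, the activator of the complex, had 26.6, 40.8 and 53.8 CPM under p38i, 26, 50.7 and 34 CPM under EZH2i and 33.1, 31.3 and 29.5 CPM under the combination, against 17.1, 16.8 and 25.4 CPM in the controls. All 9 treated libraries were above the 3 controls, and the lowest of them, EZH2i 5-3, was near control 2-1. The conjugating enzyme UBE2C had a log2 fold change of 0.86 under p38i (SE 0.227, adjusted p = 0.0694 in edgeR). DESeq2 called UBE2C and CDC20 higher under p38i, as it did 2.24% of all genes tested. PTTG1, the securin that holds separase in check, overlapped the controls in every comparison. UBE2S, which extends ubiquitin chains, had as few as 1 count in a library and log2 fold changes of 0.55 (SE 0.675) under p38i, 0.01 (SE 0.639) under EZH2i and 0.84 (SE 0.662) under the combination.

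The spindle checkpoint genes had median log2 fold changes of 0.83 under p38i, 0.56 under EZH2i and 0.85 under the combination. TTK, the kinase that starts checkpoint signalling, had log2 fold changes of 0.83, 0.89 and 0.88 under p38i, EZH2i and the combination (SE 0.297, 0.298 and 0.296). BUB3, a partner of BUB1 and BUB1B, varied least of the 5, at 404 to 491 CPM under p38i, 342 to 573 CPM under EZH2i and 375 to 419.9 CPM under the combination, against 333 to 387 CPM in the controls. For MAD2L1, the checkpoint effector that binds CDC20, the combination libraries had 65.9, 71.5 and 70.0 CPM, against 20.8, 37.2 and 59.7 CPM in the controls. The groups were separate for this gene, with control 1-1 far below the rest, and the log2 fold change was 0.79 (SE 0.301, adjusted p = 0.245 in edgeR).

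The chromosomal passenger complex, which couples error correction at the centromere to cytokinesis, had median log2 fold changes of 0.77 under p38i, 0.49 under EZH2i and 0.46 under the combination. Its kinase AURKB had 163, 227 and 289.9 CPM under p38i, 167, 349 and 119 CPM under EZH2i and 214, 157 and 187 CPM under the combination, against 92.4, 123 and 149 CPM in the controls. The p38i and combination libraries were above all controls, while EZH2i 6-1 was within the control range and EZH2i 5-4 was the highest of the 12. BIRC5, the survivin subunit, had log2 fold changes of 0.68, 0.46 and 0.50 under p38i, EZH2i and the combination, and its groups overlapped in each.

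The kinetochore and centromere genes had the highest median of the 9 roles under p38i, a log2 fold change of 1.05. The median was 0.60 under EZH2i and 0.69 under the combination. At an unadjusted p under 0.05, 10 of 11 (90.9%) were higher under p38i, against 73.2% of all 56 members and 9.08% of all genes tested. Differences between roles were not tested. For SKA1, the EZH2i libraries had 6.51, 20.4 and 7.86 CPM and the combination libraries 9.08, 10.3 and 6.28 CPM, all above the controls, and EZH2i 5-4 was the highest of the 12. SKA2, of the same complex, had log2 fold changes of 0.26 (SE 0.203), 0.02 (SE 0.204) and 0.05 (SE 0.203) under p38i, EZH2i and the combination. CENPF, a large kinetochore protein of G2 and mitosis, had 386, 431 and 620.2 CPM under p38i, against 276, 305 and 385 CPM in the controls, a separation that rests on a narrow gap between p38i 3-3 and control 2-1. CENPA, the histone H3 variant of centromeres, had a log2 fold change of 1.35 under p38i (SE 0.510), with 19.3 CPM in p38i col6 against 8.18 and 6.35 CPM in the other p38i libraries.

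SPC24, a subunit of the NDC80 complex, was close to the limit of counting. It had 3, 17 and 0 counts in the p38i libraries, 7, 6 and 11 counts in the EZH2i libraries and 10, 20 and 16 counts in the combination libraries, against 0, 2 and 1 counts in the controls. The summed counts per total were 6.47 times those of the controls under p38i (95% exact interval 1.92 to 34), 9.35 times under EZH2i (2.84 to 48.5) and 14.3 times under the combination (4.60 to 71.9). These intervals cover counting error only, and p38i col6, the highest library for most members, had no SPC24 count. In edgeR, which takes in the spread between tumours, SPC24 was called in none of these comparisons. Its log2 fold changes were 2.52 (SE 1.16) under p38i, 3.13 (SE 1.13) under EZH2i and 3.63 (SE 1.06) under the combination. The adjusted p-values in edgeR were 0.264, 0.229 and 0.192.

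The 11 kinesins had median log2 fold changes of 0.85 under p38i, 0.65 under EZH2i and 0.61 under the combination. At an unadjusted p under 0.05, 9 (81.8%) were higher under p38i, against 73.2% of all 56 members and 9.08% of all genes tested. KIF11, the motor that pushes spindle poles apart, had 63.4, 99.2 and 77.3 CPM under EZH2i and 63.0, 66.3 and 84.4 CPM under the combination, against 37.0, 54.0 and 55.0 CPM in the controls. Both groups were above all controls, whereas p38i 3-3, at 51.8 CPM, was within them. KIF20A, a motor of the central spindle, had 102, 105 and 86.6 CPM under the combination, against 17.9, 36.3 and 77.3 CPM in the controls. The controls spanned a wide range, and the log2 fold change of 1.13 had an SE of 0.435 and an adjusted p of 0.253 in edgeR. KIF20B, another motor of cytokinesis, had log2 fold changes of 0.42, 0.32 and 0.18 under p38i, EZH2i and the combination.

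The 6 genes of spindle assembly had median log2 fold changes of 0.62 under p38i, 0.49 under EZH2i and 0.48 under the combination. TPX2, the activator of AURKA on spindle microtubules, had 147, 195 and 218 CPM under p38i, 159, 255 and 178 CPM under EZH2i and 187, 161 and 177 CPM under the combination, against 82.8, 116 and 145 CPM in the controls. Every treated library was above every control, p38i 3-3 by a small margin. TACC3, which stabilises spindle microtubules, had log2 fold changes of 0.54 (SE 0.223), 0.15 (SE 0.225) and 0.05 (SE 0.224) under p38i, EZH2i and the combination, and CKAP2 had 0.29, 0.20 and 0.32. Among the 3 cytokinesis genes, ECT2, the exchange factor that activates RHOA at the cleavage site, had log2 fold changes of 0.49, 0.49 and 0.56 with SEs of 0.212, 0.213 and 0.212. PRC1, the bundler of the central spindle, had 139 CPM in control 2-1 against 29.6 and 51.0 CPM in the other controls.

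The proliferation marker MKI67 had 266, 342 and 591 CPM under p38i, 261, 374 and 276 CPM under EZH2i and 382, 192 and 292 CPM under the combination, against 169, 225 and 302 CPM in the controls. Each treated group overlapped the controls, and combination 9-1 was the second lowest library. TOP2A, the topoisomerase that untangles chromosomes, had log2 fold changes of 0.67 (SE 0.244), 0.44 (SE 0.243) and 0.41 (SE 0.243) under p38i, EZH2i and the combination, with adjusted p-values of 0.158, 0.420 and 0.404 in edgeR.

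**Figure D5:**
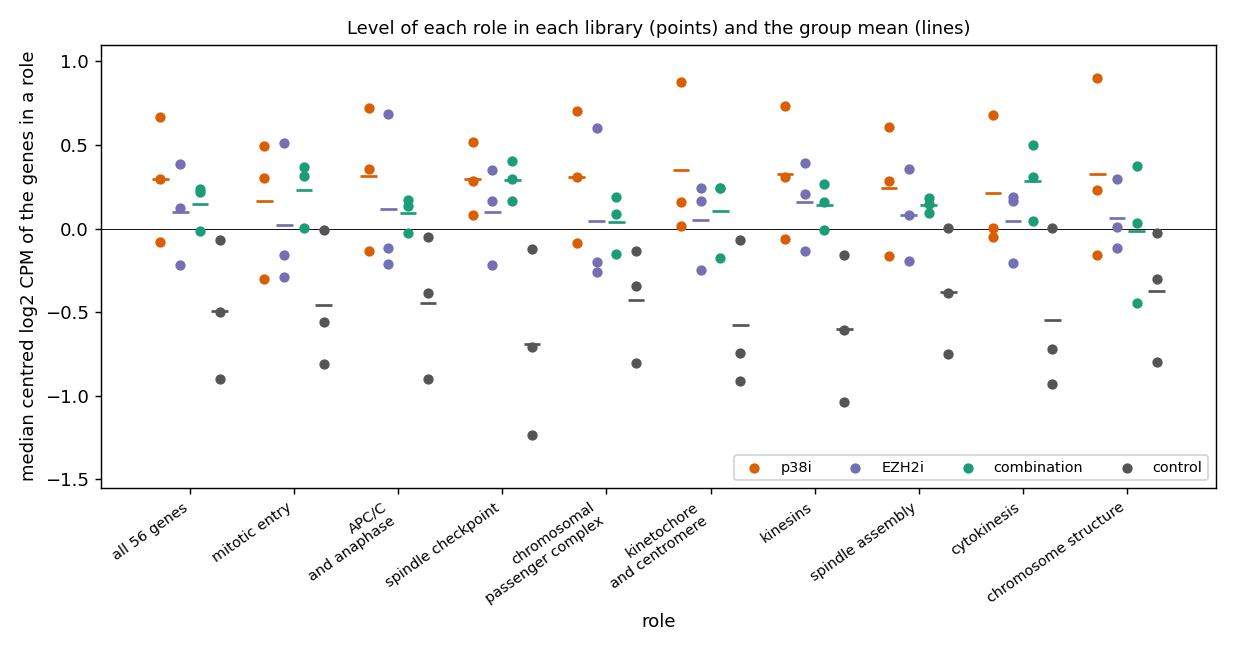
Median centred log2 CPM of the genes in each role (and of all 56) in each library (points), with the group mean (lines), for p38i, EZH2i, combination and control. In each role the control mean is the lowest of the 4, and the highest control point lies among the treated points or just below them.

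No mitotic gene was called between the combination and either single treatment. Against p38i, 0 of 56 members were called by edgeR, as were 0% of all genes tested in each direction; 4 members, KIFC1, NDC80, SKA1 and TACC3, were lower at an unadjusted p under 0.05 (4.28% of all genes tested) and 0 higher (3.52%). The median log2 difference was -0.15, with 37 of 56 negative. KIFC1 had 67.4, 54.8 and 68.7 CPM under the combination, against 80.4, 98.8 and 252 CPM under p38i, a log2 difference of -1.18 (95% interval -1.96 to -0.40, adjusted p = 0.575 in edgeR). KIFC1, NDC80, SKA1 and FOXM1 were the 4 members with all combination libraries below all p38i libraries (8.18% of all genes tested), and 0 had them all above (6.77%). Against EZH2i, 0 members were called, as were 0% of all genes tested, 0 had an unadjusted p under 0.05 in either direction (1.45% of all genes tested higher and 1.67% lower), and the median log2 difference was 0.04. KIF20A alone had all combination libraries above all EZH2i libraries (3.34% of all genes tested), and 0 members had them all below (3.77%).

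The interaction, which is the combination's log2 fold change minus the sum of those of p38i and EZH2i, was negative for 52 of 56 members, with a median of -0.69. No member was called by edgeR, where 0.016% of all genes tested were called higher and 0.00799% lower; 15 members were lower at an unadjusted p under 0.05 (6.94% of all genes tested), 1 was higher (6.19%), and DESeq2 called 3 lower, and 0.775% of all genes tested. SKA1 had the most negative value, -2.21 (SE 0.546, adjusted p = 0.113), followed by KIFC1 at -1.98 (SE 0.519, adjusted p = 0.140) and NDC80 at -1.56 (SE 0.413, adjusted p = 0.140), all from edgeR. CDC25B had the highest value, 0.71. The controls enter this sum with the sign opposite to that in the single comparisons, so a low control pushes it down.

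Genes with TTTGAA in the promoter and genes without it had overlapping fold changes. Under p38i the median log2 fold change was 0.78 in the 31 genes with it (0.42 to 1.74) and 0.64 in the 17 without it (-0.55 to 2.52). Under EZH2i the medians were 0.55 with it and 0.54 without it, and under the combination they were 0.68 and 0.61.

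Beyond the 56, a list of 118 other mitotic genes had 114 tested members, and 0 of them were called by edgeR in any comparison with the controls; of all genes tested, 0.655% were called higher under p38i, 0.0879% under EZH2i and 0% under the combination. At an unadjusted p under 0.05, 37 were higher and 1 lower under p38i (9.08% and 9.3% of all genes tested), 20 higher and 1 lower under EZH2i (7.43% and 7.29%), and 26 higher and 3 lower under the combination (7.66% and 8.67%). The median log2 fold changes were 0.34 under p38i, 0.26 under EZH2i and 0.36 under the combination. Under p38i, 25 other kinetochore and centromere genes had a median of 0.62, 18 other mitotic regulators 0.49, 34 other spindle and cytokinesis genes 0.27 and 20 condensin and cohesin genes 0.24. The 17 subunits and inhibitors of the anaphase-promoting complex had a median of -0.0049, with ANAPC4, a scaffold subunit, at -0.46 (SE 0.172, adjusted p = 0.169). Differences between these lists were not tested. CENPQ, a subunit of the inner kinetochore, and CDC25A, the phosphatase that acts from G1 to mitosis, had the smallest adjusted p under p38i, 0.0569 each, with log2 fold changes of 0.68 and 1.15. Of 24 tested genes of DNA replication and S phase, MCM3, a subunit of the replicative helicase, was called higher under p38i, at 139.8, 172 and 205 CPM, against 89.9, 94.0 and 116 CPM in the controls (log2 fold change 0.79, adjusted p = 0.0433 in edgeR). The median of 14 tested genes of G1 cyclins and CDK inhibitors was -0.11 under p38i, -0.14 under EZH2i and -0.01 under the combination.

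Exons of 13 of the 56 genes overlap those of another gene of the table in a GRCh38 annotation, 12 of them a gene on the opposite strand, and since the strand setting of the counting is not stated, reads of the pairs may not be told apart. BUB1, SKA1, NDC80, KIF2C, KIFC1 and CDC25B are not among the 13, whereas PRC1, PLK1, SPC24, CCNA2 and FOXM1 are. The near copies KIF4B and PTTG2 had at most 3 and 1 counts in any library.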

How the data were processed

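RNA-seq of 12 tumours was used, 3 per group. The authors deposited raw counts by gene symbol, with each library in a column; 3 lines without a gene name summed to 0 counts and were dropped. Per the submitters' processing notes, Trim Galore 0.5.0, STAR 2.6.0 and hg19 were used. The counting program, its strand setting and any removal of mouse reads are not given in the sources used here. Per the labels' protocols, both a SMARTer mRNA kit and QuantSeq are named. Since 3′ and full-length counts depend differently on transcript length, levels of different genes were not compared as results. The summed CPM and the choice of the highest gene in each role do weigh genes by level, and so carry that dependence. The column number in each description was read as the header name. Nothing in the labels gives replicate pairs.

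Genes were kept by filterByExpr (minimum count 10) of edgeR 4.0.16 (R 4.3.3), libraries were scaled by TMM, and the 12 libraries entered a single robust quasi-likelihood fit whose terms were the 4 groups. F tests were two-sided, with Benjamini-Hochberg adjustment over 12514 genes. The common biological coefficient of variation was 0.219. Log2 CPM used 0.5 added to each count. The labels number the tumours but do not say that each came from its own animal, so p-values measure only the spread between these samples. Pipelines were tested on simulated data. Alternatives were limma 3.58.1 (voom), DESeq2 1.42.0, other scalings and filters, and leaving out libraries. The genes, roles and other lists were chosen with earlier results of these data known, and no test over a list was made. Genes named were those called, fixed key genes, the highest in each role and those with the 3 largest and 3 smallest absolute changes; CDC25B, CDC25C, CDC20, UBE2C, MAD2L1, KIF15, CCNA2, PRC1 and MCM3 were added after their values were seen. No protein sequence was used.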

Additional observations from a re-analysis of the deposited data

How the results depend on the processing

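The number of mitotic genes called under p38i, 5 as reported (0.655% of all genes tested called higher), depended on the setting. It was 8 with no filter on low counts (0.601% of all genes in the same fit called higher). With DESeq2 it was 12, CDC25B among them as lower (2.24% higher and 2.81% lower). It was 2 with limma-voom (0.447% higher) and 2 when only the 2 groups compared were fitted (0.747%). It stayed at 5 with other scalings, a mean of at least 5 CPM or no robust option (0.591% to 0.818%). For EZH2i, 0 became 2 with no filter (0.237% of all genes tested called higher) and 3 with DESeq2 (0.831%). For the combination, 0 became 3 with DESeq2 (0.575% of all genes tested called higher). For the interaction, 0 became 1 with no filter (0.204% of all genes tested higher and 0.128% lower). It became 3 there with DESeq2 (1.03% higher and 0.775% lower). Leaving out 1 library gave 0 to 20 calls for p38i, 0 to 2 for EZH2i and 0 to 12 for the combination, and each maximum was reached without control 2-1. Calls among all genes tested rose there too. The shares called higher were 1.94%, 0.327% and 0.957%, against 0.655%, 0.0879% and 0% with all 12 libraries. Settings with 2 controls left out were chosen after seeing the data. Without controls 1-1 and 1-3 the median log2 fold changes were 0.36 (p38i), 0.14 (EZH2i) and 0.26 (combination). Without controls 1-3 and 2-1 the medians were 1.27, 1.11 and 1.07. Such fits leave 1 control, so no counts of calls are given for them. With 1 library left out the medians were 0.49 to 1.03 for p38i, 0.33 to 0.87 for EZH2i and 0.45 to 0.89 for the combination, all positive. Of 1784 values of named genes under the alternatives, 1710 stayed on their side of the threshold, among them 18 uncalled values that changed sign; 52 lost a call, 22 gained one and 0 called values changed sign. With only the groups compared, an interaction could not be fitted. No paired analysis was possible because the groups share no replicate numbers. Of the members, 10 had fewer than 20 counts in a library, PLK1, UBE2S and SPC24 among them; the cause of these shifts was not tested.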
